A study of Homo sapiens with 6 samples.

Results

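The kinesin superfamily consists of motor proteins that walk along, or take apart, microtubules. Its members were taken from the deposited expression table as the rows with a KIF or KIFC symbol, and 40 of the 17088 genes listed had one. Of these, 29 passed the filter on low values, at least 1 FPKM (fragments scaled to transcript length and library total) in at least 3 libraries, and 11 did not. Symbol alone decided membership. The family was proposed, and its split into mitotic and transport motors made, with results of the comparison below already known, so the counts and medians over members describe these libraries and support nothing further.

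RNA sequencing was carried out on MDA-MB-231 cells, an established and mesenchymal-like line of triple-negative breast cancer. One group of 3 libraries (VecNC, here the control) came from cells with a control vector, and the other 3 (VecRPPH1, here RPPH1) came from cells with a vector for the noncoding RNA RPPH1, the RNA subunit of RNase P. No further genotype, time or agent was labelled, and both groups shared the cell line and the carrying of a vector. The question was which transcripts differ when RPPH1 is overexpressed. Neither the origin of the replicates (separate cultures or not) nor the number of clones was labelled, so the p-values below reflect a spread between libraries that may be no more than technical.

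Kinesins share a motor domain that turns ATP hydrolysis into movement, most of them towards the plus ends of microtubules. One set builds and moves the mitotic spindle, aligns chromosomes and closes the midbody at cytokinesis, and its mRNAs accumulate towards mitosis in dividing cells. Another set carries vesicles, organelles and other cargo through interphase cells, and a few members serve cilia and centrioles.

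Library totals were 17603126 to 18817269 fragments, and the median tested gene had 833 fragments. No 2 libraries of a group agreed within sampling noise (chi-square over degrees of freedom, 2.21 to 8.36). The line's markers VIM (2585 to 2743 FPKM), CD44 (211 to 222 FPKM) and CAV1 (71.4 to 86.4 FPKM) were abundant, whereas SPARC, another mesenchymal marker, reached only 1.57 FPKM. The luminal and epithelial markers ESR1 and CDH1 stayed at or under 0.0173 and 0.144 FPKM, while GATA3, another luminal marker, and EPCAM were listed at 2.33 to 3.37 and 6.17 to 7.29 FPKM. Of the 5 markers of other cell types, PTPRC, PECAM1, CD3E, CD79A and ALB, none passed the filter. RPPH1 itself was not analysed here, so overexpression was not checked from its own transcript.

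Most promoters of the mitotic motors held short motifs known for cell cycle control. Genes expressed late in the cell cycle often carry a CHR element (cell cycle genes homology region), the site of the DREAM and MuvB complexes, beside CCAAT boxes, the sites of NF-Y. RefSeq windows of 300 bases (250 before and 50 after an annotated start, GRCh38.p14) were matched to 33 of 40 members, and 7 had no window in the table (KIF13B, KIF21B, KIF26B, KIF27, KIF5A, KIFC2 and KIFC3). The letters searched were TTTGAA or TTCGAA on either strand for the CHR (so TTCAAA on the other strand), and CCAAT or ATTGG for the CCAAT box, and a hexamer and a CCAAT box can share at most 1 end letter. Among mitotic motors shown here, KIF20A, KIF20B, KIF2C and KIF18A had the largest absolute fold changes between the groups, and KIF11, KIF4A and KIF23 were added after the motif search because they show how the motifs lie. Capitals mark a motif, each stretch is read along its gene, and stretches were limited to bases outside annotated exons or to 30 bases around a motif. A stretch can therefore miss motifs counted in its window. The CHR hexamers of KIF20B, at 25 and 31 after the start, and the CCAAT box of KIF18A, at -45, are not shown. KIF22 was also chosen after the motif search, but its stretch missed its CHR at -27 and is not printed.
KIF20A, chr5:138179020-138179049, plus strand: tggtagctgcaggcttccctatctgATTGG
KIF20B, chr10:89701440-89701589, plus strand: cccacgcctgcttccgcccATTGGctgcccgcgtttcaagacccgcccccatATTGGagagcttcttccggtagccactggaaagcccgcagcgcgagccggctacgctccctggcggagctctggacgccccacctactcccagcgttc
KIF2C, chr1:44739687-44739817, plus strand: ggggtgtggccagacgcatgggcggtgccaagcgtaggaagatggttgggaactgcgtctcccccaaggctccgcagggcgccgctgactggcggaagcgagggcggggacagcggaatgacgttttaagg
KIF18A, chr11:28108157-28108186, minus strand: gctgaggaaagtggcttgggTTTGAAtatt
KIF11, chr10:92592980-92593129, plus strand: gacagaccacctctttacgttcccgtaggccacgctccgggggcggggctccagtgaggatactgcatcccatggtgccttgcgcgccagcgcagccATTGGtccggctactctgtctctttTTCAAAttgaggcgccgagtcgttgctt
KIF4A, chrX:70289980-70290089, plus strand: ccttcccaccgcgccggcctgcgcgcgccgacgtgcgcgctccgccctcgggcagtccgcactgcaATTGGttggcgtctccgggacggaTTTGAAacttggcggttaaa
KIF23, chr15:69414278-69414307, plus strand: ggcgctgATTGGcccgTTTGAAatgcgcca

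For contrast, the transport motors with the highest mean FPKM and a window are shown in the same way.
KIF5B, chr10:32056432-32056575, minus strand: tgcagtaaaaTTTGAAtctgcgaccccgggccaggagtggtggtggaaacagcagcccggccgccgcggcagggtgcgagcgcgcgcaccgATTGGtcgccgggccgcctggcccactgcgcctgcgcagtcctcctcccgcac
KIF1C, chr17:4997800-4997947, plus strand: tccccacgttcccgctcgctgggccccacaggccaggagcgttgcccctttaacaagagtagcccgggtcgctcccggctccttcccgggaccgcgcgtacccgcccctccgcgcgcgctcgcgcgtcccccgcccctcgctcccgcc
KIF3B, chr20:32277501-32277650, plus strand: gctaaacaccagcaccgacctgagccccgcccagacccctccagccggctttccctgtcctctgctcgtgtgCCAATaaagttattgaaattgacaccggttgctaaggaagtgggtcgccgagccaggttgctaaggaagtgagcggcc

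A CHR hexamer was found in the windows of 10 of 12 tested mitotic kinesins, all but KIF2C and KIF20A, and in 1 of 9 tested transport kinesins with a window, KIF5B. Among 8960 tested genes with a window the share was 15.4%, and among all 35116 windows of the same length it was 16.4%. A CCAAT box was found in 10 of 12 mitotic kinesins, all but KIF2C and KIF15, and in 3 of 9 transport kinesins, against 44.1% of tested genes with a window and 34.6% of all windows. Both motifs were present in 9 of 12 mitotic and 1 of 9 transport windows, and in 6.64% of tested genes. In the 9 mitotic windows with both, a CHR lay downstream of a CCAAT box, with 25 bases between their first bases in KIF11, 24 in KIF4A, 35 in KIF18A, 39 in KIF22, 9 in KIF23, 23 in KIF14, 34 in KIF18B, 50 in KIFC1 and 122 in KIF20B. In KIF5B the order was the other way round, with the CHR at -140 and the CCAAT box at -59 relative to the start. A CHR at most 60 bases downstream of a CCAAT box, a distance chosen after the motif search, was found in 8 of 12 mitotic and 0 of 9 transport windows, and in 2.15% of tested genes. The arrangement was not particular to mitotic motors. Of 21 tested G2/M genes that are not kinesins, 14 had both motifs and 12 had this arrangement. The cilium kinesin KIF24 had it too, with 48 bases between the first bases. A match describes letters in a window and does not show a bound site, and a window without a match says nothing about the factor.

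**Figure D1:**
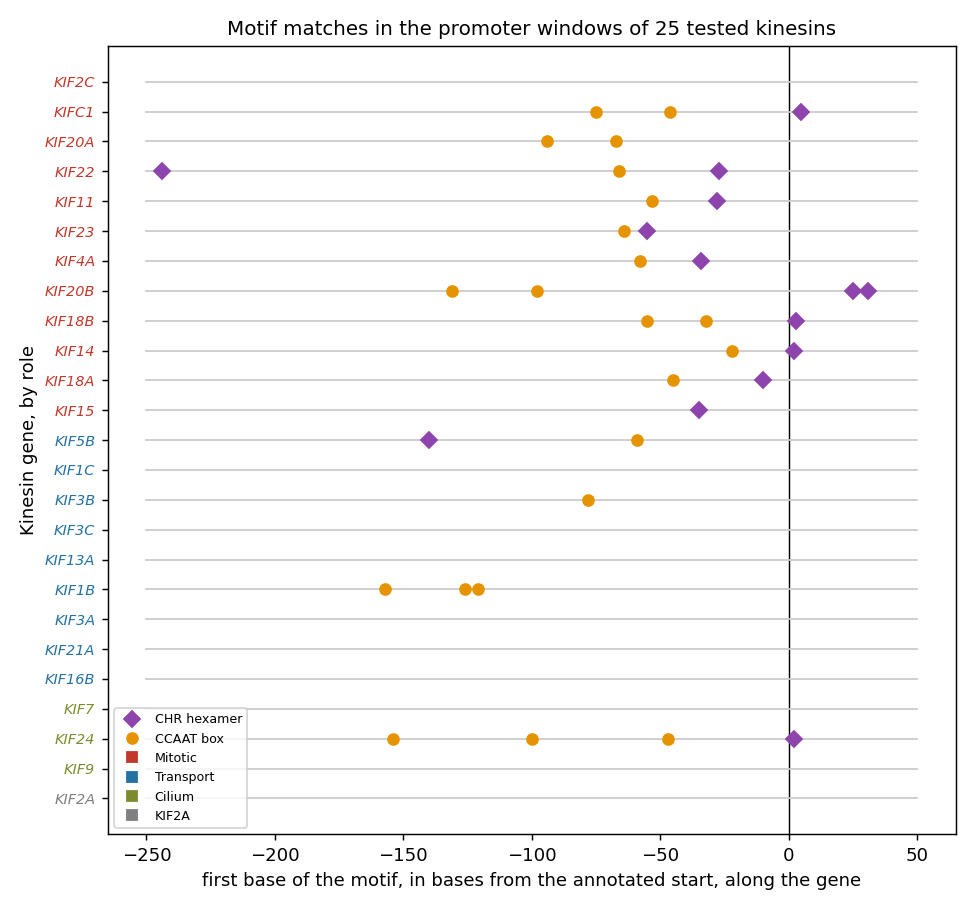
Positions of CHR hexamers (diamonds) and CCAAT boxes (circles) in the promoter windows of 25 tested kinesins, one line per gene with all its windows laid over each other; the horizontal axis gives the first base of each motif in bases from the annotated start. CHR hexamers appear on 10 of 12 mitotic lines (red labels) and 1 of 9 transport lines (blue labels).

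The family spanned a wide range of mRNA levels. Of the 29 tested members, KIF5B, the ubiquitous conventional kinesin heavy chain, was the highest with a mean of 77.9 FPKM over the 6 libraries, and KIF9, a motor of motile cilia, was the lowest with 1.36 FPKM. KIF5B was at the 95.5th percentile of all listed genes. The order ran on through KIFC3, KIF1C and then the mitotic motors KIF2C, KIFC1, KIF20A, KIF22, KIF11, KIF23 and KIF4A. The libraries of KIF5B and KIFC3 did not overlap, nor did those of KIFC3 and KIF1C, but each neighbouring pair from KIF1C down to KIF23 overlapped in its 6 values. Further gaps without overlap separated KIF23 from KIF4A, KIF18B from KIF2A, KIF2A from KIF14, KIFC2 from KIF15, KIF3C from KIF13A, KIF13A from KIF1B, KIF3A from KIF27 and KIF16B from KIF9, and all other neighbours overlapped. Tested mitotic motors had means of 9.77 to 50.4 FPKM, and tested transport motors had means of 2.47 to 77.9 FPKM.

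Paralogue shares were taken only for the KIF3, KIF4, KIF5 and KIF21 genes, and in all but KIF3 a single paralogue held nearly all of the signal. This does not describe the family as a whole. KIF18A and KIF18B had means of 13.2 and 18.5 FPKM, and KIF13A and KIF13B had means of 7.75 and 5.11 FPKM. KIF5B made up 99.97% of the summed KIF5A, KIF5B and KIF5C level in the controls, and KIF5A and KIF5C, known as neuronal heavy chains, reached at most 0.0189 and 0.0367 FPKM. KIF21A held 99.1% of the KIF21A and KIF21B sum in the controls. Among the kinesin-2 subunits, KIF3B held 60.2%, KIF3C 26.9% and KIF3A 12.9% in the controls, and 61.0%, 26.1% and 12.8% in the RPPH1 libraries. KIF4A held 99.0% of the KIF4A and KIF4B sum in the controls, but KIF4B is a near-copy of KIF4A. In GENCODE 29 transcripts, 14.0% of the 50-base words of KIF4B also occurred in KIF4A, and the rest did not. The split between KIF4A and KIF4B is uncertain for fragments from the shared stretches, and how these were assigned was not tested. No other pair of the 40 kinesins shared a 50-base word.

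The 11 members under the filter were at or near 0 in these cells. KIF12 and KIF1A, a neuronal vesicle motor, were listed at 0 in all 6 libraries. KIF26A had 1 fragment in 1 library, which is 0.00808 FPKM. KIF17, a dendritic and ciliary motor, reached 0.240 FPKM, and KIF4B reached 0.336 FPKM. The maxima of KIF25, KIF21B, KIF26B and KIF6 were 0.0670, 0.0461, 0.0246 and 0.0225 FPKM.

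**Figure D2:**
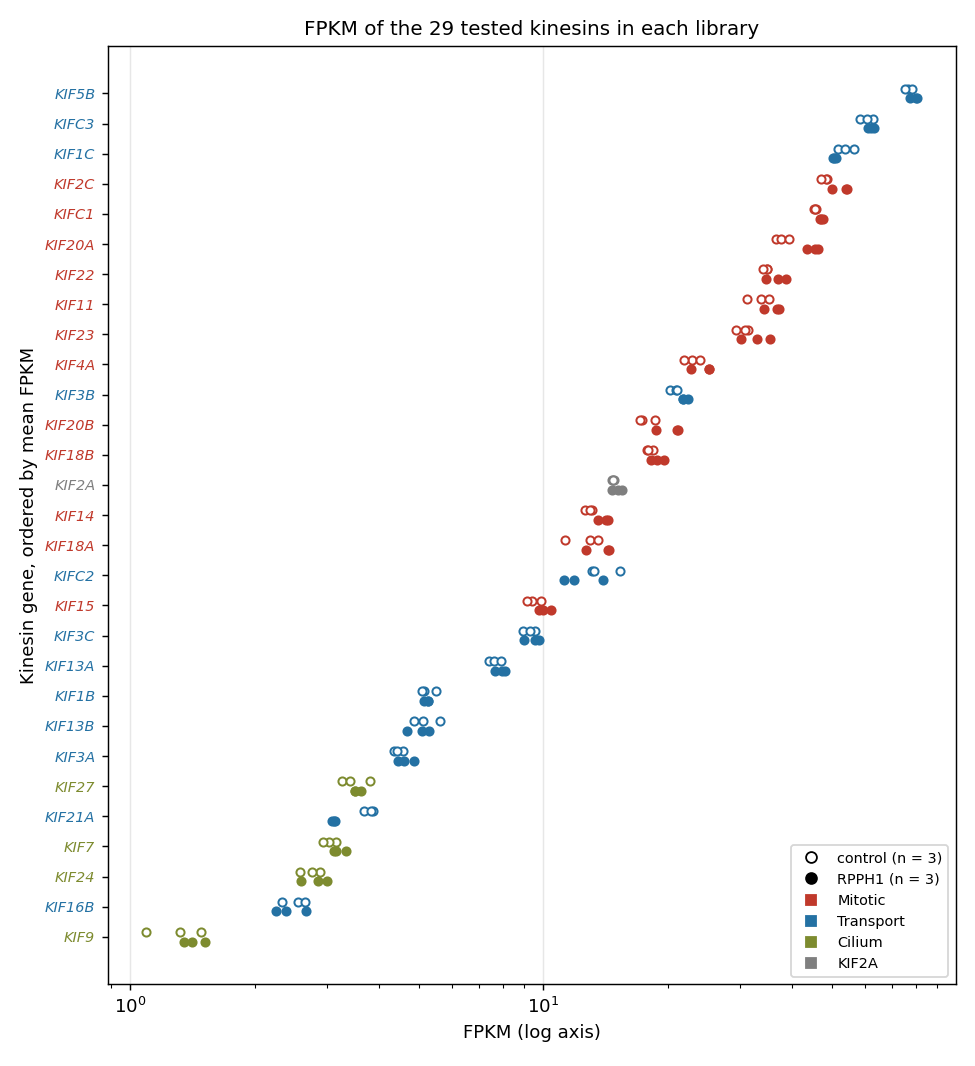
FPKM of the 29 tested kinesins in each of the 6 libraries on a log axis, with open points for control and filled points for RPPH1 libraries, genes ordered by mean level and colours giving the role. KIF5B lies highest at 75.2 to 80.3 FPKM and KIF9 lowest at 1.09 to 1.52 FPKM.

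In the libraries from cells with the RPPH1 vector, all 12 tested mitotic kinesins had a higher mean than in the controls, by 3.59% to 19.4%. The 12 tested transport kinesins divided into 6 with a higher and 6 with a lower mean. The median difference on the log2(FPKM + 1) scale was 0.11 for mitotic motors (range 0.05 to 0.25) and 0.0080 for transport motors (range -0.22 to 0.08), beside 0.0046 over all 10909 genes tested. Across all genes, 52.3% had a higher and 47.7% a lower mean, and the 5th and 95th percentiles of the difference were -0.13 and 0.13. By limma over all genes, 0 of 29 kinesins passed an adjusted p of 0.05, where 0.00917% of all genes did (1 gene, lower). At an unadjusted p under 0.05 there were 5 kinesins (KIF20A, KIF20B, KIF2C, KIF14 and KIF21A), where the share of all genes was 7.97%. The first 4 of them were higher with RPPH1 (4.29% of all genes were) and KIF21A was lower (3.68% were). Voom on fragment numbers recovered from the FPKM values called 1 kinesin, KIF20A, where 0.156% of all genes were called. The libraries of the groups did not overlap in 5 of 12 mitotic motors, all of them higher with RPPH1, where 7.98% of all genes were apart in that direction. In bulk RNA, more cells near mitosis and more of each mRNA per cell cannot be told apart.

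**Figure D3:**
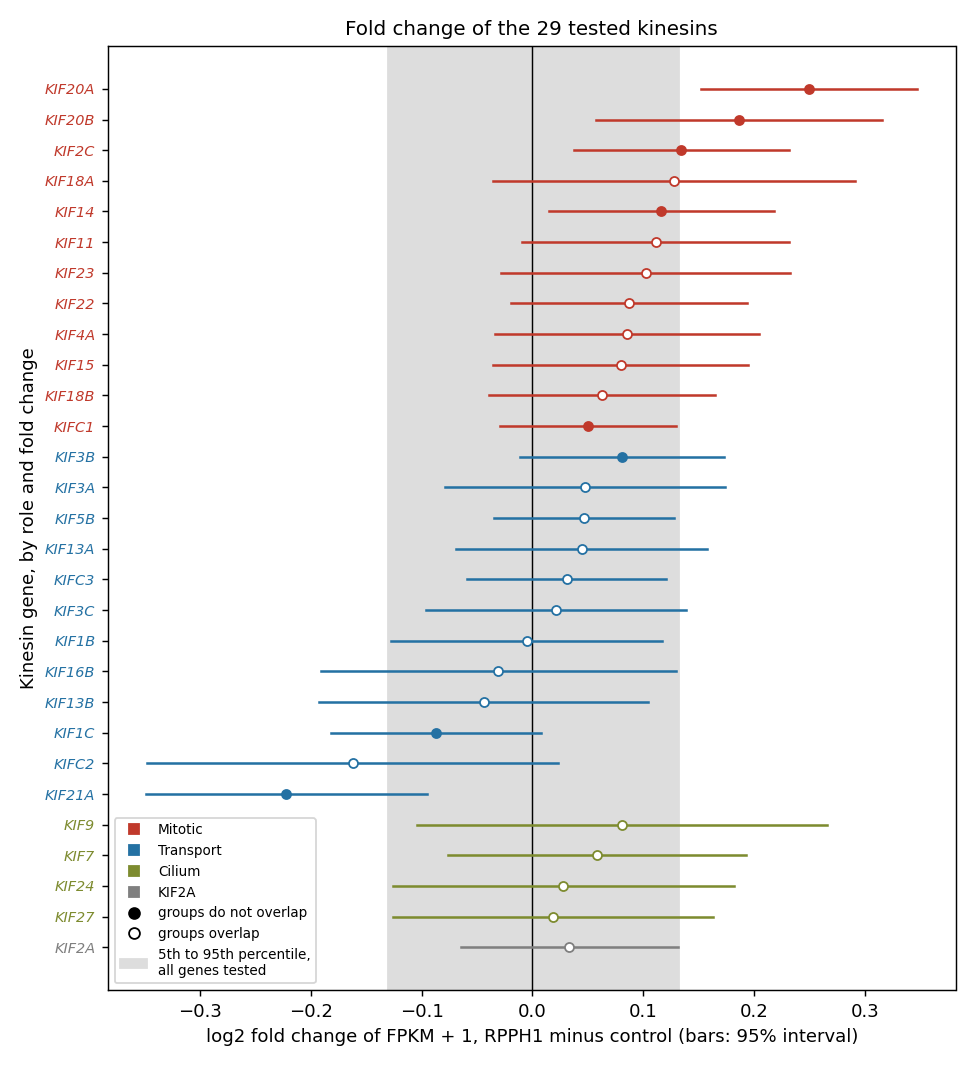
Log2 difference of each tested kinesin (RPPH1 minus control on the log2(FPKM + 1) scale) with its 95% interval from limma, grouped by role; filled points mark groups that do not overlap, and the grey band spans the 5th to 95th percentile of all genes tested. All 12 mitotic points lie above 0, from 0.05 to 0.25, and transport points lie on both sides, from -0.22 to 0.08.

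Among the motors of cytokinesis, KIF20A differed most. KIF20A (MKLP2; chr5:138178719-138187715, plus strand, GRCh38), which brings the chromosomal passenger complex to the central spindle, was at 36.6, 37.6 and 39.4 FPKM in control replicates 1 to 3 and at 46.3, 43.6 and 45.6 FPKM in RPPH1 replicates 1 to 3. Every RPPH1 library was above every control library. The means were 37.8 ± 1.4 and 45.2 ± 1.39 FPKM (SD, n = 3 each), 19.4% higher with RPPH1, from 2117 to 2618 fragments per library. The log2 difference was 0.25 (SE 0.0435), with an adjusted p of 0.182 by limma and 0.0202 by voom, so the call depended on the test. Its promoter window held CCAAT boxes at -94 and -67, of which only the latter lies in the stretch shown above, and no CHR hexamer.

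KIF20B (MPP1), a motor needed to complete cytokinesis, was at 17.4, 18.7 and 17.2 FPKM in the controls and at 21.0, 18.8 and 21.2 FPKM with RPPH1. The groups were apart, but RPPH1 replicate 2 stood just above control replicate 2 (log2 difference 0.19, limma adjusted p 0.465). KIF14, which recruits citron kinase to the midbody, was at 12.6, 13.1 and 12.9 FPKM in the controls and at 14.2, 13.6 and 14.4 FPKM with RPPH1, again without overlap (0.12, limma adjusted p 0.573). KIF23 (MKLP1), the motor subunit of centralspindlin, was at 29.2, 31.3 and 30.8 FPKM in the controls and at 33.0, 30.2 and 35.3 FPKM with RPPH1. Here RPPH1 replicate 2 lay within the control range, so the groups overlapped (0.10, limma adjusted p 0.691).

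The motors that act on kinetochores and chromosome arms had log2 differences of 0.09 to 0.13, below those of KIF20A and KIF20B. KIF2C (MCAK), the depolymerase at centromeres that frees wrongly attached microtubules, was at 48.6, 48.4 and 47.0 FPKM in the controls and at 54.0, 50.04 and 54.4 FPKM with RPPH1. The groups did not overlap, and RPPH1 replicate 2 lay nearest to the controls (0.13, limma adjusted p 0.479). KIF18A, which damps the oscillation of aligned chromosomes, was at 12.9, 13.5 and 11.3 FPKM in the controls and at 14.4, 12.7 and 14.4 FPKM with RPPH1. Control replicate 3 was low and the groups overlapped (0.13, limma adjusted p 0.691). KIF22 (Kid), a chromokinesin that pushes chromosome arms away from the poles, was at 34.8, 34.8 and 34.0 FPKM in the controls and at 34.5, 37.1 and 38.7 FPKM with RPPH1. In this gene it was RPPH1 replicate 1 that lay among the controls (0.09, limma adjusted p 0.680). KIF4A, a chromokinesin that also limits central spindle length, was at 22.9, 24.0 and 22.0 FPKM in the controls and at 25.2, 22.8 and 25.2 FPKM with RPPH1, with RPPH1 replicate 2 inside the control range (0.09, limma adjusted p 0.711).

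The spindle assembly motors followed the same direction with the groups mostly overlapping. KIF11 (Eg5), which slides antiparallel microtubules apart to make the spindle bipolar, was at 33.6, 35.2 and 31.1 FPKM in the controls and at 36.7, 34.2 and 37.1 FPKM with RPPH1. RPPH1 replicate 2 lay within the control range (0.11, limma adjusted p 0.665). KIF15, which can keep spindles bipolar when KIF11 is inhibited, was at 9.38, 9.89 and 9.15 FPKM in the controls and at 10.5, 9.75 and 9.997 FPKM with RPPH1, and the groups overlapped (0.08, limma adjusted p 0.721). KIF18B, a regulator of astral microtubule length, was at 18.5, 17.8 and 17.9 FPKM in the controls and at 19.6, 18.2 and 18.9 FPKM with RPPH1, and the groups overlapped (0.06, limma adjusted p 0.759). KIFC1 (HSET), the minus-end-directed motor that focuses spindle poles and clusters extra centrosomes, was at 45.8, 45.2 and 45.5 FPKM in the controls and at 46.7, 47.6 and 47.0 FPKM with RPPH1. The KIFC1 groups were apart although the difference was the smallest of the 12 (0.05, limma adjusted p 0.752). The spread within its groups was 0.832%, below the 1.99% that counting alone gives, while in 11 of 12 mitotic motors the spread exceeded the counting error.

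Libraries of one group also ranked alike across mitotic motors, more so in the RPPH1 group than in the controls. RPPH1 replicate 2 was the lowest of its group in 10 of 12 mitotic kinesins, against 4 of 12 transport kinesins and 35.4% of all genes tested. Control replicate 3 was the lowest of the controls in 7 of 12, against 29.5% of all genes tested. Among the 24 other G2/M genes, RPPH1 replicate 2 was the lowest of its group in 22. Control replicate 3 was the lowest of the controls in only 4 of those 24, and control replicate 1 in 12. The mean log2 deviation of the 12 mitotic motors from the control mean was -0.0040, 0.03 and -0.03 in control replicates 1 to 3, and 0.14, 0.05 and 0.15 in RPPH1 replicates 1 to 3. For the 24 other G2/M genes it was -0.02, 0.01 and 0.0019 in the controls and 0.16, 0.08 and 0.16 with RPPH1. The median difference of the mitotic motors was 0.14 without RPPH1 replicate 2 and 0.07 without control replicate 3. The part of the other G2/M genes' levels in the kinesin result was not tested.

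Transport kinesins showed no shared direction. KIF5B was at 76.6, 78.2 and 75.2 FPKM in the controls and at 79.9, 77.3 and 80.3 FPKM with RPPH1 (0.05, limma adjusted p 0.777). KIFC3, a minus-end-directed motor found at cell junctions, was at 63.0, 58.4 and 61.0 FPKM in the controls and at 61.1, 63.1 and 62.2 FPKM with RPPH1 (0.03, limma adjusted p 0.883). Both overlapped between the groups. KIF1C, which carries integrin vesicles and mRNAs to cell protrusions, was at 56.6, 51.7 and 53.7 FPKM in the controls and at 50.4, 50.7 and 51.2 FPKM with RPPH1. All RPPH1 libraries were lower than all controls, by a narrow gap to control replicate 2 (-0.09, limma adjusted p 0.665).

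KIF21A, counted here in the transport set, had the largest absolute difference of that set. KIF21A (chr12:39293228-39443390, minus strand, GRCh38), a motor that restrains microtubule growth at the cell cortex, was at 3.87, 3.68 and 3.83 FPKM in the controls and at 3.12, 3.08 and 3.14 FPKM with RPPH1. The groups were well apart, with means of 3.79 ± 0.10 and 3.11 ± 0.0311 FPKM (SD, n = 3 each), which is -18.0% as a difference of means. The log2 difference was -0.22 (SE 0.0565) with an adjusted p of 0.383 by limma and 0.216 by voom. These values rest on 352 to 464 fragments per library. The spread within its groups, 2.00%, was below the 4.99% that counting alone gives.

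The kinesin-2 heterotrimer moves intraflagellar trains and endosomes. Its KIF3B subunit was at 20.3, 21.0 and 21.0 FPKM in the controls and at 21.8, 22.4 and 21.8 FPKM with RPPH1, apart from each other (0.08, limma adjusted p 0.672). KIF3C was at 8.93, 9.57 and 9.31 FPKM in the controls and at 8.97, 9.77 and 9.54 FPKM with RPPH1, with overlap (0.02, limma adjusted p 0.942). KIF3A had means of 4.45 ± 0.105 and 4.63 ± 0.206 FPKM (SD, n = 3 each) and overlapped as well. Of the transport motors, 1 was apart in the higher direction (KIF3B) and 2 in the lower (KIF21A and KIF1C), where 7.98% and 5.88% of all genes were.

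KIFC2, a minus-end-directed motor described in neurons, had the widest spread among transport motors. It was at 13.1, 13.3 and 15.4 FPKM in the controls and at 11.9, 14.0 and 11.2 FPKM with RPPH1, so that RPPH1 replicate 2 exceeded 2 of the 3 controls (-0.16, limma adjusted p 0.672). KIF13A, a motor of recycling endosomes, was at 7.38, 7.59 and 7.88 FPKM in the controls and at 8.05, 7.95 and 7.65 FPKM with RPPH1 (0.04, limma adjusted p 0.860). The remaining members, KIF1B (a motor of mitochondria and synaptic vesicles), KIF13B and KIF16B (the latter a motor of early endosomes), had log2 differences of -0.0053, -0.04 and -0.03, each with overlapping groups.

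The motors of cilia and centrioles were low in these cells and overlapped between the groups. KIF27 had means of 3.49 ± 0.277 FPKM in the controls and 3.54 ± 0.0769 FPKM with RPPH1 (SD, n = 3 each, as for the next members). KIF7, a regulator of Hedgehog signalling at the cilium tip, had means of 3.03 ± 0.109 and 3.20 ± 0.119 FPKM. KIF24, which restrains cilium formation at the mother centriole, had means of 2.74 ± 0.158 and 2.81 ± 0.210 FPKM. Their median log2 difference with KIF9 was 0.04, and 4 of 4 had a higher mean. KIF2A, a depolymerase that acts both at spindle poles and in neurites and was therefore kept in neither main set, was at 14.9, 14.7 and 14.7 FPKM in the controls and at 15.5, 14.7 and 15.2 FPKM with RPPH1, with overlap (0.03, limma adjusted p 0.883).

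Summed over members, the difference lay on the mitotic side. The mitotic sum was 323, 330 and 319 FPKM in the controls and 356, 339 and 363 FPKM with RPPH1. The transport sum was 267, 261 and 265 FPKM in the controls and 263, 266 and 264 FPKM with RPPH1. The ratio of the sums was 1.21, 1.26 and 1.20 in the controls and 1.36, 1.27 and 1.37 with RPPH1, so the groups did not overlap, with RPPH1 replicate 2 close to control replicate 2. Since both sets were chosen with the contrast known, the ratio carries no test. KIF5B, KIFC3 and KIF1C together made up 71.6% to 73.6% of the transport sum in each library, and all kinesins together made up 0.181% to 0.193% of the FPKM of a library.

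Genes that work with the motors were counted in the same comparison, from lists chosen with earlier results of these data known. Of 16 tested partners of the mitotic motors, 14 had a higher mean with RPPH1 and 7 were apart in that direction (median 0.08), where 52.3% and 7.98% of all genes were. CDCA8, a chromosomal passenger subunit, was at 42.9, 40.2 and 42.7 FPKM in the controls and at 48.2, 46.0 and 50.6 FPKM with RPPH1 (0.20, limma adjusted p 0.326). The other passenger subunits in the list differed less. BIRC5 (0.07) was apart in the higher direction, while the groups overlapped for INCENP (0.07) and AURKB (-0.03). RACGAP1, which forms centralspindlin with KIF23, had means of 32.7 ± 0.415 and 36.7 ± 1.44 FPKM (SD, n = 3 each; 0.16, limma adjusted p 0.404). CENPE, a kinetochore kinesin whose symbol lies outside the rule, was at 15.2, 15.4 and 15.1 FPKM in the controls and at 17.2, 16.1 and 17.0 FPKM with RPPH1, without overlap (0.13, limma adjusted p 0.532). STARD9, the other kinesin without a KIF symbol, had a difference of -0.00039 and overlapping groups.

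Cargo partners and the opposing motor system resembled the transport kinesins in having no common direction. Of 18 tested cargo adaptors and partners, 9 had a higher and 9 a lower mean (median 0.0018). Of them 1, RHOT1, was apart in the higher direction, where 7.98% of all genes were, and 0 in the lower. Of 22 tested dynein and dynactin genes, 12 were higher and 10 lower (median 0.0051), with 1 apart in the higher direction and 0 in the lower. The gene apart was NDE1, a dynein regulator, with means of 5.61 ± 0.0549 and 6.35 ± 0.331 FPKM (SD, n = 3 each, 0.15, limma adjusted p 0.560). Of 13 tested tubulins, 6 were higher and 7 lower (median -0.01), with TUBD1 (0.19, limma adjusted p 0.465) and TUBA4A (-0.18, limma adjusted p 0.465) farthest in each direction. Of the tubulins 1 was apart in the higher direction (TUBD1) and 3 in the lower (TUBA4A, TUBB6 and TUBG2), where 7.98% and 5.88% of all genes were. None of these genes was called by limma or voom.

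The other cell cycle genes were counted alongside. Of 24 tested G2/M genes without kinesins, 24 had a higher mean with RPPH1 and 18 were apart in that direction, where 7.98% of all genes were (median 0.13), with NEK2, a centrosome kinase, at 0.24 (limma adjusted p 0.306) and AURKA, the spindle kinase, at 0.18 (limma adjusted p 0.320). Of 24 tested G1/S and replication genes, 5 were higher and 19 lower (median -0.04), and the median was 0.0065 without control replicate 1, so its sign rested on that library. Of these genes 2 were apart in the lower direction, where 5.88% of all genes were, E2F1, a G1/S transcription factor (-0.19, limma adjusted p 0.404), and GINS2, a replication factor (-0.18, limma adjusted p 0.465). The control libraries differed among themselves in the G1/S genes, with mean deviations of 0.07, -0.05 and -0.02, and control replicate 1 was the highest of the controls in 21 of 24. In the promoter windows, 15 of 21 G2/M genes and 2 of 20 G1/S genes had a CHR hexamer, as did 0 of 19 dynein and dynactin genes.

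**Figure D4:**
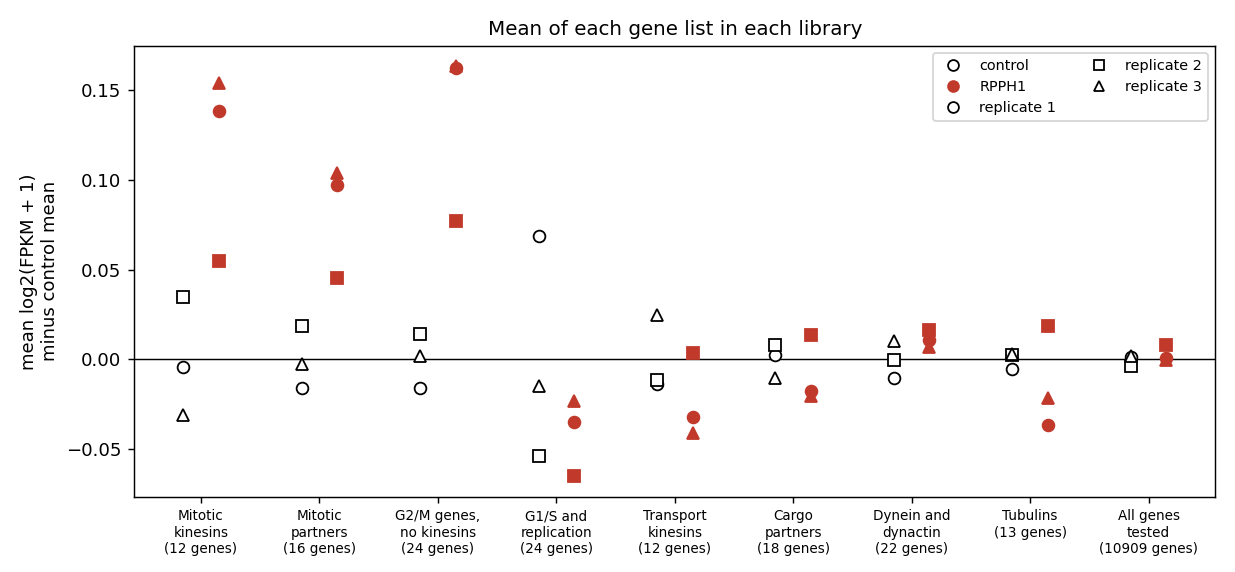
Mean log2 deviation from the control mean for each gene list in each library, in log2(FPKM + 1) units, with open symbols for control, filled symbols for RPPH1 and a shape for each replicate number. Mitotic kinesins and G2/M genes lie at 0.05 to 0.16 in the RPPH1 libraries, with replicate 2 nearest to the controls, and transport kinesins lie between -0.04 and 0.0035 there.

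Annotation deposited with the table followed the division more closely for mitotic terms than for transport terms. All 40 members carried the term microtubule motor activity. Terms with mitotic, spindle, cytokinesis or chromosome were attached to 13 of 13 mitotic kinesins and 5 of 16 transport kinesins. They were also attached to 2 of 5 kinesins outside the mitotic, transport and cilium sets. Terms with transport were attached to 10 of 13 mitotic and 11 of 16 transport kinesins. Terms with cilium or ciliary were attached to 0 of 13 mitotic, 5 of 16 transport and 4 of 6 cilium kinesins.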

How the data were processed

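The authors deposited FPKM values for 17088 genes, 1 column per library. Per the labels' protocols, total RNA was made into stranded mRNA libraries, and per the submitters' processing notes Trimmomatic, HISAT2, Cufflinks and GRCh38 were used, while versions and annotation release were not given in the sources used here. FPKM divides out depth and length. Fragment numbers were recovered from the value steps and were whole (within 0.01 fragments plus a relative 3e-08) in 99.99% of tested genes, with totals of 17603126 to 18817269. The 10909 genes that reached 1 FPKM in 3 or more libraries entered a limma fit (3.58.1, R 4.3.3) of log2(FPKM + 1) on group, with a mean-variance trend and Benjamini-Hochberg adjustment over all of them. Fold changes on this scale understate those of low genes. An exact permutation test of 3 against 3 libraries cannot go below p = 0.1, so none was used. limma-voom on recovered fragments was an alternative, and the fit was tested on simulated data. The spread between simulated libraries was a fixed setting and not fitted to these libraries, so nothing is drawn from that test here. Coordinates are GENCODE 29 on GRCh38, and promoters are RefSeq GRCh38.p14. Per-library values were given for all tested mitotic motors, for the 8 highest others and for those with groups apart. Members and lists were chosen with earlier results of these data known. KIF2B, KIF19 and KIF28P were not analysed here.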

Additional observations from a re-analysis of the deposited data

How the results depend on the processing

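None of the 12 tested mitotic kinesins reversed direction in the 12 alternatives, and 8 of 12 transport kinesins did not either. The changed filters and the replicate block leave a gene's log2 difference as it is, so they could not reverse it. With the filter at 5 FPKM, 22 kinesins were fitted, and the transport motors KIF3A, KIF21A and KIF16B were not among them. Without each library in turn, the mitotic median ran from 0.07 to 0.14, the transport median from -0.0099 to 0.01, KIF20A from 0.23 to 0.28 and KIF21A from -0.24 to -0.21. Leaving out 1 library moved the value by over 1.5 times in 6 of 12 mitotic motors, KIF18A (to 0.056) and KIF11 (to 0.064) without control replicate 3, KIF4A (to 0.056 without control replicate 3, to 0.13 without RPPH1 replicate 2), KIF23 (to 0.049 without RPPH1 replicate 3, to 0.16 without RPPH1 replicate 2), KIF22 (to 0.05 without RPPH1 replicate 3) and KIF18B (to 0.036 without RPPH1 replicate 1). It did so in 9 of 12 transport motors, among them KIFC2 (-0.25 to -0.094), KIFC3 (0.0031 to 0.056), KIF1C (to -0.052 without control replicate 1), KIF13A (to 0.025 without control replicate 1) and KIF3A (to 0.019 without RPPH1 replicate 1). Kinesins called numbered 0 in every setting except voom, with 1. Genes called numbered 1 in the reported test, 0 without a filter, 8 with a filter at 5 FPKM, 17 by voom, 0 when the replicate number was a block, and 0 to 7 without each library. The block changed no kinesin call. Correlations of deviations for replicate numbers 1 to 3 were 0.0566, 0.0180 and -0.104. They cannot show whether libraries of the same number were prepared together, and the labels give only the number. Without each library in turn, medians ran from -0.0194 to 0.0119 for cargo partners, -0.0032 to 0.0116 for dynein and dynactin, -0.0344 to -0.0013 for tubulins 0.11 to 0.17 for G2/M genes and -0.0618 to 0.0065 for G1/S genes. In the same leave-one-out fits the sign reversed for KIF13B (-0.082 to 0.0044), KIF16B (-0.078 to 0.0063), KIF1B (-0.024 to 0.025), KIF24 (-0.0077 to 0.071), KIF27 (-0.0176 to 0.068), KIF3C (-0.0025 to 0.053) and STARD9 (-0.033 to 0.0279, and 0.0013 by voom), and the cause was not tested. Fragment numbers limit the low members most, and KIF9 had as few as 84 fragments in a library.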
